A study of Homo sapiens with 4 samples.

Results

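The genes described here are 49 human genes of DNA replication, replication stress and the DNA damage response, chosen by name for their function, with no measured value in the rule. Reads were placed on 48 of them, among 17782 genes with reads in the whole data set. The 49 were sorted by role into 7 classes, from checkpoint kinases to nucleotide excision repair. Their nascent RNA was measured in K562, a human chronic myeloid leukaemia cell line, in 2 samples labelled SF3B1 K700E and 2 samples labelled SF3B1 wild type (WT). Both groups had received doxycycline at 1 µg/ml, which induces the modified allele per the labels, and both were harvested after 4 days. SF3B1 is a core protein of the U2 snRNP that helps to recognise the branch point and 3′ splice site of introns, and K700E is a recurrent substitution in myeloid neoplasms. The labels do not say how many clones each line holds, whether the replicates were separate cultures, or what doxycycline induces in the WT line, so a p-value here speaks of the spread among these 4 libraries, part of which may be technical.

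Chromosomes are copied by a helicase of MCM proteins that ORC1, CDC6 and CDT1 load at origins and that CDC45 and MCM10 help to activate, followed by polymerases held by the PCNA clamp, which the RFC complex loads. Single-stranded DNA at a stalled fork is coated by RPA, and RPA in turn recruits the ATR kinase, which activates CHEK1 and slows the cell cycle. Fanconi anaemia and homologous recombination proteins repair crosslinked or broken forks, while RNase H2 and topoisomerases clear RNA and supercoils ahead of and behind them. The series title places the study at the link between splicing factor mutations, RNA polymerase II elongation and replication stress, which is the question these genes bear on.

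Long reads of chromatin-bound RNA report at once whether a transcript is being made and whether its introns have been removed before release. Reads over all unique introns came to 459681 and 909621 in K700E replicates 1 and 2, against 1346733 and 1185006 in WT replicates 1 and 2. A read counts once for every intron it overlaps, so these totals and the gene sums below are read-intron overlaps, and they grow with the number of introns in a gene. Splicing efficiency is the percentage of reads over an intron, or over all unique introns of a gene, that carry the splice junction. Where annotated introns of a gene overlap, its non-overlapping set keeps those with the most junction reads over the 4 samples together. That choice uses the spliced counts themselves, so efficiency over this set is no independent check of the value over all introns. Nascent coverage is the gene's overlaps per 1000000 overlaps of the library, abbreviated OPM. The shallowest library was K700E replicate 1, in which 7717 introns had at least 10 reads, against 25166 in K700E replicate 2, 34512 in WT replicate 1 and 30684 in WT replicate 2. Its median gene efficiency was 47.8%, against 53.1% in K700E replicate 2, 59.1% in WT replicate 1 and 50% in WT replicate 2, and the part of depth in the results was not tested. The labels call the cells epithelial, whereas the 10 erythroid markers summed to 1773 and 2291 OPM in K700E and to 2251 and 3470 in WT, with KLF1 and EPOR at 0 in every sample. TFRC, a receptor that dividing cells in general also carry, made up 1588 and 1887 OPM of these sums in K700E and 2091 and 3013 in WT, while GATA1 had between 2.97 and 13.1 OPM. The 6 epithelial markers summed to 52.2 and 107 OPM in K700E and to 70.5 and 50.6 in WT. SF3B1 itself had 500 and 511 OPM in K700E and 1790 and 591 in WT, and the tables do not tell the alleles apart.

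Splicing efficiency could be tested in 40 of the 49 genes, those with at least 10 overlaps in every sample. Across them the median efficiency was 67.8% and 68.2% in K700E replicates 1 and 2 and 72.6% and 61.5% in WT replicates 1 and 2, so the WT samples lay on both sides of the K700E samples. The difference of group means was negative in 27 genes and positive in 13, and its median over members was -3.28 percentage points, close to -2.55 over all 5088 genes tested. Of all 5088 genes, 3174 had a negative difference, which is the background for the counts by role below. No member passed an adjusted p of 0.05 in edgeR's quasi-likelihood test, where 0% of all genes did. DESeq2 called 1 gene of all those tested, which was no member, and limma called 0. At an unadjusted p under 0.05 there were 3 members of 40, RFC3, ERCC2 and TOP2A, against 3.34% of all genes. In 10 members both K700E samples lay below both WT samples, where 21.1% of all genes did so, and in 4 both lay above, where 10.3% did so. Both shares are near the background.

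**Figure D1:**
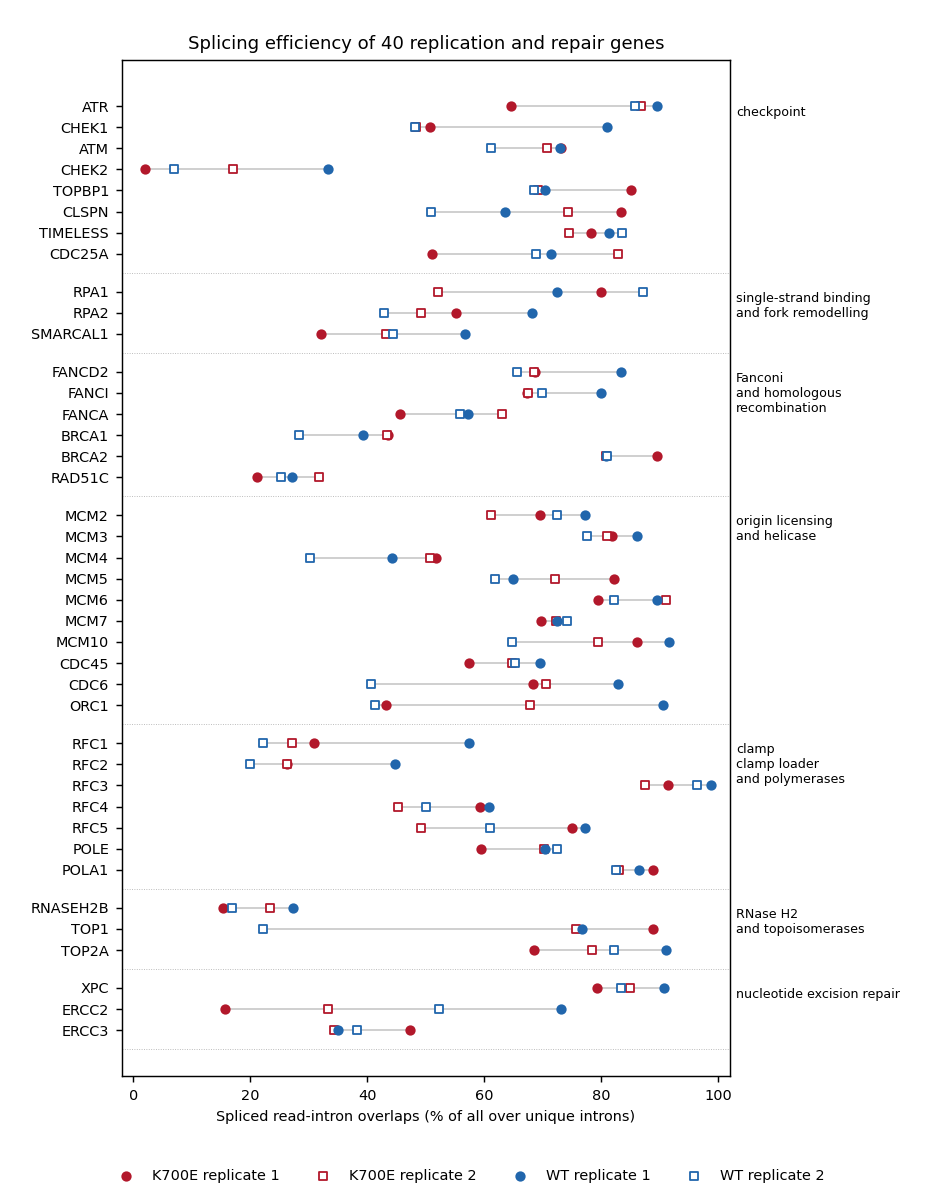
Splicing efficiency in percent for each of the 40 tested genes, grouped by role, with 1 point per sample (red K700E, blue WT; filled circles replicate 1, open squares replicate 2) and a grey line over the range of the 4 samples. ERCC2, at 15.6% and 33.3% in K700E against 73.1% and 52.2% in WT, stands out by the gap between its groups, while TOP1 has 1 WT sample far below the other 3. The ERCC2 values rest on at most 7 reads over any intron.

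Among the checkpoint genes, 5 of 8 tested members had a lower mean efficiency in K700E and 3 a higher one. CLSPN encodes claspin, the adaptor through which ATR activates CHEK1. Its introns were 83.3% and 74.2% spliced in K700E, against 63.5% and 50.8% in WT, on 24 to 66 overlaps per sample. No intron had more than 2 and 6 reads in K700E and 7 and 4 in WT, so few molecules may lie behind these overlaps. The groups did not overlap (log2 odds 1.4 ± 0.70 SE, unadjusted p = 0.0896, edgeR's adjusted p = 1.00). ATR, the apical replication stress kinase, was spliced to 64.6% and 86.9% in K700E and to 89.6% and 85.7% in WT, and it is K700E replicate 1 that lay apart from the other 3 samples. CHEK1, its effector kinase, gave 50.7% and 48.4% in K700E and 81.0% and 48.1% in WT, where WT replicate 1 lay apart. Over its non-overlapping introns alone CHEK1 gave 64.2% and 78.8% in K700E, against 83.2% and 84.3% in WT, and there the groups did not overlap. That set was picked by its junction reads, and the share of all genes so separated in it was not taken.

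All 3 tested genes of single-strand binding and fork remodelling had a lower mean in K700E, where 3174 of all 5088 genes did so. RPA1, the large subunit of RPA, was 80% and 52.1% spliced in K700E and 72.3% and 87.2% in WT, and the groups overlapped. For SMARCAL1, an annealing helicase that remodels stalled forks, the values were 32.1% and 43.2% in K700E and 56.7% and 44.4% in WT. These groups do not overlap, yet the nearest values differ by little (log2 odds -0.73 ± 0.58 SE, unadjusted p = 0.258). RPA2, the RPA subunit phosphorylated under replication stress, gave 55.2% and 49.2% in K700E between the WT values of 68.2% and 42.9%.

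The Fanconi and homologous recombination genes were split evenly, with 3 lower and 3 higher means. FANCI and FANCD2 form the clamp that is ubiquitinated at crosslinks, and both were read deeply, FANCI with 904 and 1435 overlaps in K700E and 2133 and 1985 in WT. FANCI efficiency was 67.4% and 67.5% in K700E, against 80% and 69.8% in WT. FANCD2 efficiency was 68.7% and 68.5% in K700E, against 83.4% and 65.5% in WT. In both genes the K700E samples were nearly equal and the distance came from WT replicate 1. Over non-overlapping introns alone FANCI gave 87.0% and 90.6% in K700E and 95.6% and 89.4% in WT. FANCD2 gave 77.8% and 84.7% in K700E and 94.4% and 74.6% in WT there, and in both genes the groups overlapped. BRCA1, a ubiquitin ligase of homologous recombination, was 43.6% and 43.4% spliced in K700E, against 39.3% and 28.2% in WT. Many annotated BRCA1 introns overlap each other, and over its 22 non-overlapping introns alone the efficiency was 83.6% and 83.4% in K700E against 75.3% and 53.8% in WT. BRCA1 values were thus higher in K700E on both counts (log2 odds 0.62 ± 0.40 SE over all introns, unadjusted p = 0.169).

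In the origin licensing and helicase class, 6 of 10 tested genes had lower and 4 higher means in K700E. MCM5 and MCM4, both subunits of the MCM helicase, lay among the higher ones. MCM5 was 82.2% and 72.2% spliced in K700E, against 64.9% and 61.9% in WT (log2 odds 0.93 ± 0.53 SE, unadjusted p = 0.13). Over its non-overlapping introns alone the MCM5 groups lay nearer, at 94.9% and 93.4% in K700E against 89.4% and 87.4% in WT. MCM4 was 51.8% and 50.7% spliced in K700E, against 44.2% and 30.3% in WT. CDC45, which joins the MCM ring to make the active helicase, went the other way at 57.4% and 64.6% in K700E, against 69.6% and 65.2% in WT. Over its 19 non-overlapping introns alone CDC45 gave 77.3% and 84.4% in K700E, against 92.9% and 91.4% in WT. The groups lay further apart there, in a set picked by its junction reads. MCM7 values spanned only 69.6% to 74.1% over the 4 samples.

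The clamp loader and polymerase class had 6 of 7 tested genes with lower means in K700E. RFC3, a small subunit of the clamp loader (chr13:33818049-33966558, GRCh38), had the smallest p of all members. Its 8 introns with reads were 91.4% and 87.4% spliced in K700E, against 98.7% and 96.3% in WT, on 35 and 127 overlaps in K700E and 155 and 188 in WT. All 4 samples were highly spliced and the groups did not overlap (log2 odds -2.26 ± 0.74 SE, unadjusted p = 0.0218, edgeR's adjusted p = 1.00). POLE, the catalytic subunit of leading-strand polymerase epsilon, was 59.4% and 70.2% spliced in K700E, against 70.3% and 72.3% in WT (log2 odds -0.41), and over introns with at least 10 reads its log2 odds came to 0.027. RFC1, the large clamp loader subunit, gave 30.9% and 27.1% in K700E and 57.4% and 22.1% in WT, so its lower K700E mean rests on WT replicate 1.

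TOP2A, the topoisomerase that decatenates sister chromatids (chr17:40388516-40417950, minus strand), was 68.4% and 78.4% spliced in K700E, against 91.1% and 82.2% in WT. K700E lay below WT (log2 odds -1.30 ± 0.52 SE, unadjusted p = 0.0450, edgeR's adjusted p = 1.00), and without WT replicate 1 the log2 odds came to -0.70. TOP1, which relaxes supercoils ahead of forks and polymerases, was 88.9% and 75.7% spliced in K700E and 76.7% and 22.2% in WT, on 36 to 45 overlaps per sample, and WT replicate 2 lay apart. RNASEH2B, a subunit of the RNase H2 that removes ribonucleotides from DNA, gave 15.3% and 23.4% in K700E and 27.3% and 16.9% in WT over 53 annotated introns, many of them overlapping. Over its 12 non-overlapping introns alone the values were 40.9% and 52.4% in K700E, against 100% and 72.2% in WT, on 9 to 22 reads per sample, and the groups did not overlap. That set, too, was picked by its junction reads.

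TOP2A held 7 of the 10 member introns with the smallest p, and they pointed in both directions along the gene. The exon junctions of introns 3, 8 and 9 are shown because the order of the values turns between intron 3 and the later pair. In each line the 24 bases in lower case end the upstream exon, and the 24 in capitals begin the downstream exon (ENST00000423485, GENCODE 29, all coding, 5′ to 3′).
TOP2A intron 3: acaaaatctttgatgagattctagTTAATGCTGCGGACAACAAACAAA
TOP2A intron 8: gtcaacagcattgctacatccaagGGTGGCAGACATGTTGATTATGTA
TOP2A intron 9: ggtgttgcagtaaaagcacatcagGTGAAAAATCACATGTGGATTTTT
Intron 2 was spliced in 76.5% and 83.6% of 17 and 61 reads in K700E, against 21.2% and 61.1% of 52 and 18 reads in WT. Wilson 95% intervals were 52.7 to 90.4% and 72.4 to 90.8% in K700E, and 12.2 to 34.0% and 38.6 to 79.7% in WT. WT replicate 1 was lowest and stood clear of the other 3 samples, whose intervals overlap. Such intervals cover counting error only, since PCR copies of a molecule could not be told apart. This intron had the smallest adjusted p of any member intron (log2 odds 3.29 ± 0.85 SE, edgeR's adjusted p = 0.0928), above the threshold. It passed when introns with ratios above 1 were left out (adjusted p = 0.0369) and without WT replicate 2 (adjusted p = 0.00333), while without WT replicate 1 the log2 odds came to 1.53 and the adjusted p to 0.999. These are the ends of the range over all alternatives, 0.00333 to 0.999. Intron 3 (chr17:40416069-40416421, 353 nt) followed the same order, at 90% and 84.8% in K700E against 32.3% and 78.6% in WT.

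Further downstream in TOP2A the order turned round. Intron 9 (chr17:40411247-40411353, 107 nt) was spliced in 75% and 80% of reads in K700E, against 99.1% and 85.7% in WT (log2 odds -2.88 ± 1.15 SE, unadjusted p = 0.0124, edgeR's adjusted p = 0.985). Intron 8 (chr17:40411456-40411644, 189 nt) gave 67.9% and 73.9% in K700E, against 97.2% and 75% in WT. Here WT replicate 1 was the highest sample, the same one that was lowest at introns 2 and 3. Introns 15, 21 and 22 had the same direction as introns 8 and 9, for example 75% and 64.5% in K700E against 93.6% and 76.5% in WT at intron 22 (chr17:40400410-40400528, 119 nt). Of the 16 TOP2A introns tested, 14 had lower means in K700E, and neighbouring introns are often read by the same molecules, so they are not independent.

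**Figure D2:**
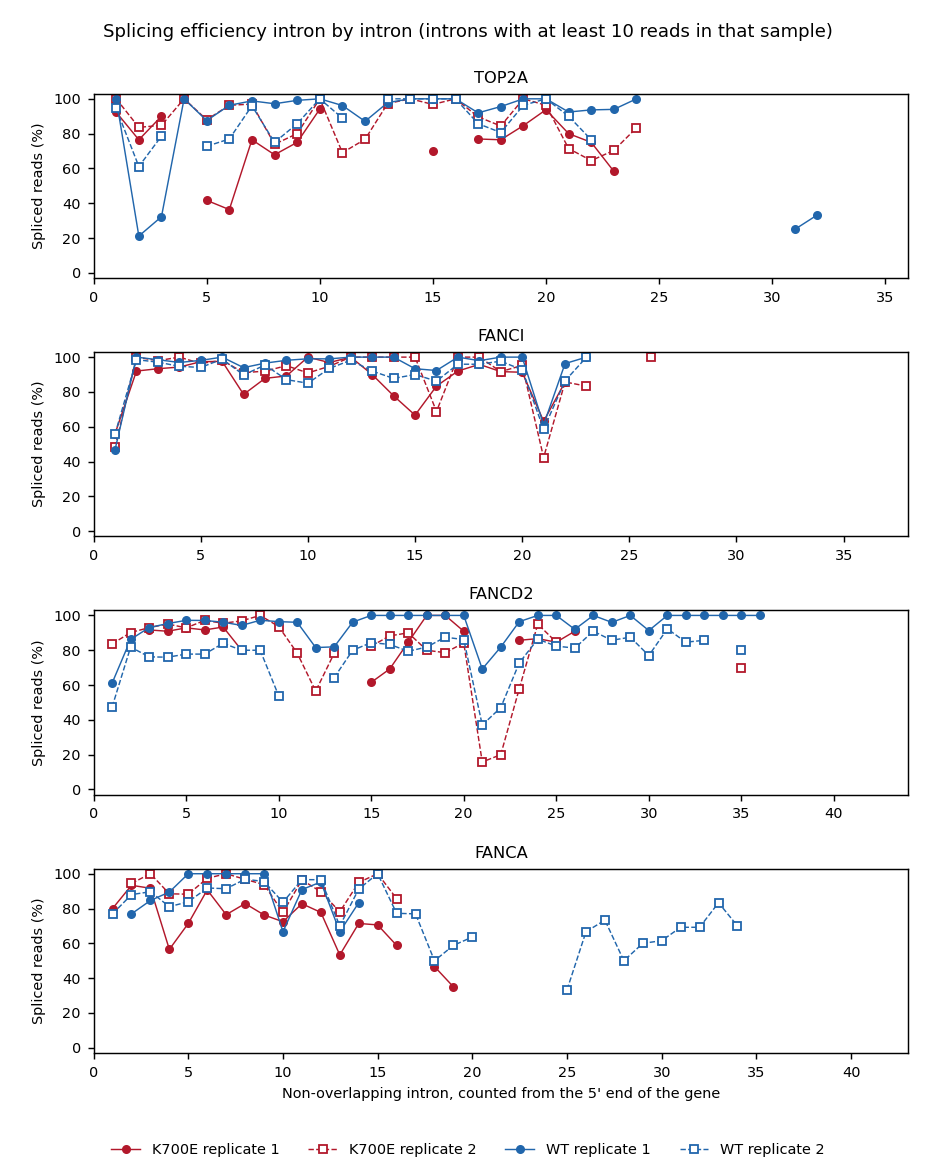
Spliced reads in percent (vertical axis) for each non-overlapping intron in order from the 5′ end (horizontal axis) of TOP2A, FANCI, FANCD2 and FANCA, drawn where the sample had at least 10 reads; red is K700E, blue is WT, and the marker gives the replicate. WT replicate 1 of TOP2A drops to 21.2% and 32.3% at introns 2 and 3 and lies at 92.4% or more at introns 8, 9, 15, 21 and 22, and FANCI dips at intron 21 in all 4 samples, to between 42.3% and 63.2%.

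Of the 3 tested nucleotide excision repair genes, 2 had lower means in K700E. ERCC2 encodes the XPD helicase of TFIIH (chr19:45349837-45370918, minus strand), which opens DNA around a lesion. Its introns were 15.6% and 33.3% spliced in K700E, against 73.1% and 52.2% in WT, on 32 and 57 overlaps in K700E and 26 and 69 in WT. No intron had more than 2 and 7 reads in K700E and 3 and 6 in WT, so few molecules may lie behind these overlaps. Over all annotated introns the difference of -38.1 percentage points is the largest of any tested member in either direction, and over non-overlapping introns it was -39.4 points for ERCC2 and -39.5 for RNASEH2B (ERCC2 log2 odds -2.28 ± 0.86 SE, unadjusted p = 0.0374, edgeR's adjusted p = 1.00). XPC, the damage sensor, was well spliced at 79.3% and 84.8% in K700E and at 90.8% and 83.3% in WT. ERCC3, the XPB helicase of TFIIH, gave 47.2% and 34.3% in K700E and 34.9% and 38.3% in WT.

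Single introns were tested where every sample had at least 10 reads, which held for 131 of the 1289 unique member introns with reads. Of these, 5 were unspliced in every sample and 126 were tested. FANCI gave 30 of the tested introns, FANCA 17, FANCD2 and TOP2A 16 each, and 10 other genes the rest. None of the 126 passed an adjusted p of 0.05 in edgeR's quasi-likelihood test, against 5 introns or 0.0982% of all 5093 tested, and DESeq2 and limma called 0 introns in any gene. At an unadjusted p under 0.05 there were 6 member introns, all in TOP2A, against 3.06% of all. The mean was lower in K700E in 85 and higher in 41, where it was lower in 3138 of all 5093 introns. The median difference was -2.77 percentage points, where all introns gave -1.68. Both K700E samples lay below both WT samples in 23 of the 126, where 19.9% of all introns did so, and above them in 11, where 9.19% did so. ATR intron 8 (chr3:142556576-142558623) was spliced in 80% and 94.4% of 15 and 18 reads in K700E, against 100% of 29 and 14 reads in WT. FANCA intron 9 (chr16:89799233-89799604) was 76.3% and 93.8% spliced in K700E, against 100% and 95.5% in WT.

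Non-overlapping member introns with enough reads numbered 110, and their choice by junction reads favours spliced introns. Of these, 59 (53.6%) had a mean of at least 90% over the 4 samples and 1 (0.909%) had a mean under 50%. Among all 4629 such introns, 55.0% and 9.22% did so, and the first share of the members is near that background. Among the 110, both K700E samples lay below both WT samples in 22, where 19.8% of all such introns did so, and above in 8, where 8.3% did so. The least spliced was MCM7 intron 4 (chr7:100099204-100099278, 75 nt), spliced in 46.2% and 40.0% of reads in K700E and in 17.9% and 44.4% in WT. Efficiency differed between length classes, without a steady order over all of them, and this was not tested. Member introns of up to 100 nt averaged 70.7% and 76.2% in K700E and 74.1% and 78.0% in WT (n = 7). Member introns above 100 and up to 250 nt averaged 68.0% and 79.6% in K700E and 87.0% and 77.8% in WT (n = 16), whereas those above 1000 and up to 5000 nt averaged 88.8% and 93.0% in K700E and 95.3% and 91.1% in WT (n = 49). Over all genes the classes of 100 to 250 nt and of 1000 to 5000 nt averaged 65.7% and 66.6% in K700E with 71.1% and 68.6% in WT, and 87.5% and 91.5% in K700E with 93.3% and 90.4% in WT. Over all genes, introns longer than 5000 nt averaged 88.8% over the 4 samples, below the 90.7% of the class before. A few introns stood below their neighbours and are named here after their values were seen. FANCI intron 21, of 77 nt, was 63.2% and 42.3% spliced in K700E and 61.1% and 58.6% in WT. CDC45 intron 12, of 248 nt, was 42.9% and 41.2% spliced in K700E, against 85.7% and 51.9% in WT. FANCD2 intron 21, of 444 nt, was 44.4% and 15.8% spliced in K700E, against 69.2% and 37.0% in WT, on 9 to 27 reads.

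Nascent coverage was tested in 45 members, those with at least 40 overlaps over the 4 samples. In K700E, CDC25A and BRCA1 had several times the coverage of WT and RPA1 had less than WT, each at an unadjusted p under 0.05. No member passed an adjusted p of 0.05 in edgeR's quasi-likelihood test, where 0% of all 8168 genes did and 5.07% had an unadjusted p under 0.05. DESeq2 called 14 genes, none of them a member. Scaled to the library total, 34 members had higher and 11 lower mean coverage in K700E, and both K700E samples lay above both WT samples in 17, where 21.3% of all genes did so, and below in 3, where 13% did so. That scaling itself moves the median log2 of all genes to 0.17, against -0.02 with edgeR's TMM factors. With TMM the members split into 28 higher and 17 lower, 15 lay above in both K700E samples against 17% of all genes, 4 lay below against 16.9%, and the median log2 was 0.16. In these bulk samples, fewer cells transcribing a gene and less RNA per cell cannot be told apart.

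**Figure D3:**
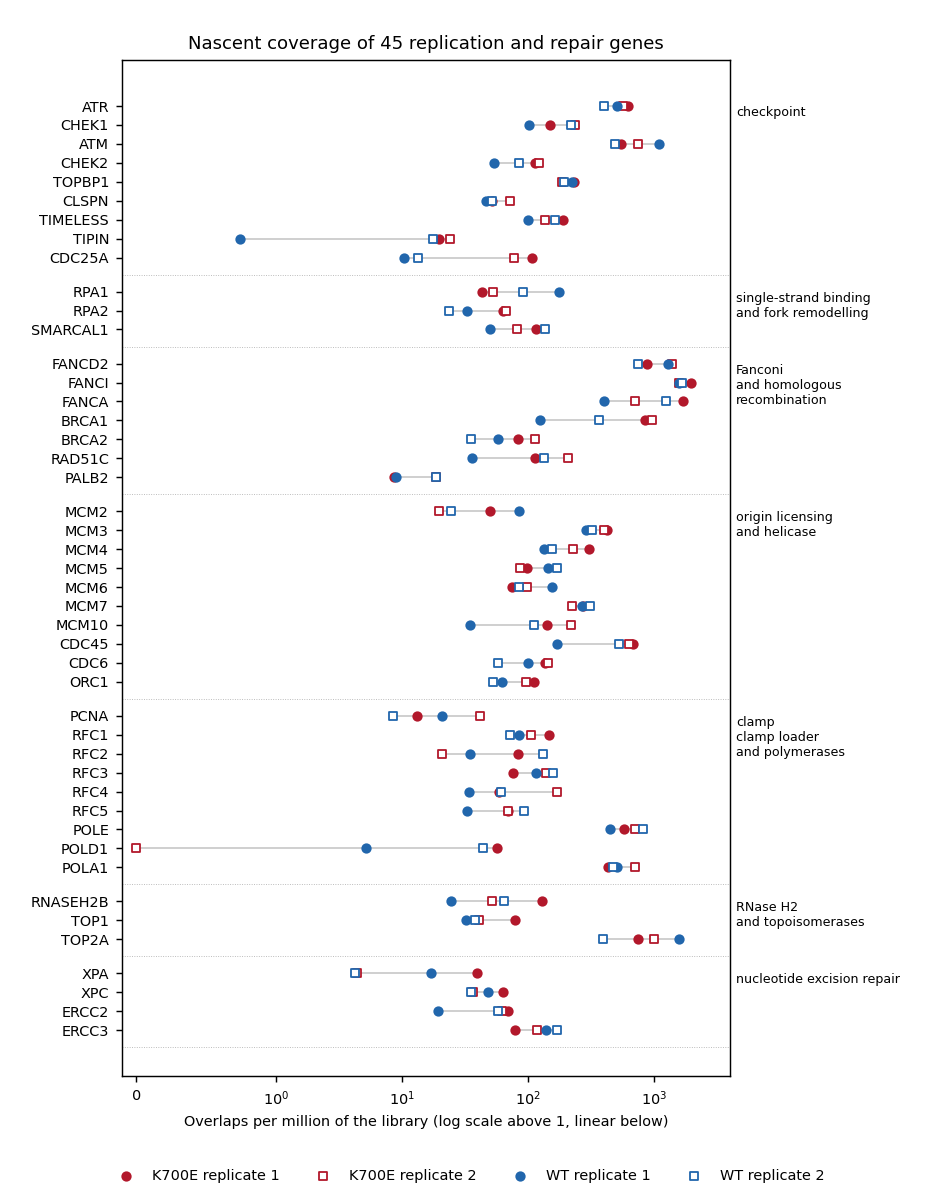
Nascent coverage in OPM for each of the 45 tested genes, grouped by role (axis logarithmic above 1 and linear below), with 1 point per sample in the same colours and a grey line over the range. CDC25A shows the widest gap between groups, at 107 and 77.0 in K700E against 10.4 and 13.5 in WT, and POLD1 had no reads in K700E replicate 2. The WT values of CDC25A rest on at most 3 reads over any intron.

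CDC25A, the phosphatase that the checkpoint destroys to hold back cyclin-dependent kinases (chr3:48157146-48188402, minus strand), had 107 and 77.0 OPM in K700E, against 10.4 and 13.5 in WT. The counts behind them were 49 and 70 overlaps in K700E and 14 and 16 in WT (log2 fold 2.74 ± 0.82 SE, unadjusted p = 0.00796, edgeR's adjusted p = 0.801). No intron had more than 7 and 11 reads in K700E and 2 and 3 in WT, so few molecules may lie behind the overlaps, above all in WT. CHEK2, the effector kinase of ATM, had 113 and 123 OPM in K700E, against 53.5 and 84.4 in WT. Of the 9 tested checkpoint genes, 8 had a higher mean in K700E when scaled to the library total, and 7 had a fitted log2 above 0 with TMM. Of all 8168 genes, 4720 and 4019 did so, which is the background for the other classes too. ATM was lower on both scales, at 550 and 740 OPM in K700E and 1098 and 494 in WT. Its K700E samples lay between the WT samples, so the lower value rests on WT replicate 1.

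RPA1 had 43.5 and 52.8 OPM in K700E, against 174 and 92.0 in WT (log2 fold -1.68 ± 0.70 SE, unadjusted p = 0.0375, edgeR's adjusted p = 0.95). Without WT replicate 1 its log2 fold came to -1.01. Its partner RPA2 had the opposite order, at 63.1 and 67.1 OPM in K700E against 32.7 and 23.6 in WT. Neither of these groups overlapped.

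BRCA1 (chr17:43044295-43170245, minus strand) had 844 and 963 OPM in K700E, against 125 and 365 in WT (log2 fold 1.74 ± 0.59 SE, unadjusted p = 0.0153, edgeR's adjusted p = 0.867). The gene overlaps other annotated genes, NBR2 among them, and the rule for assigning reads between such genes is not stated in the labels or headers. BRCA2, a mediator of homologous recombination, had 82.7 and 114 OPM in K700E, against 57.9 and 35.4 in WT. In this class 6 of 7 tested genes had higher means in K700E when scaled to the library total, and 4 had a fitted log2 above 0 with TMM.

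Helicase genes differed in sign. MCM10 had 141 and 220 OPM in K700E, against 34.9 and 112 in WT. MCM5 had 97.9 and 86.8 OPM in K700E, against 144 and 170 in WT (log2 fold -0.96), although its most covered intron alone gave a log2 fold of 0.30. Of the 10 tested in this class, 6 were higher and 4 lower in K700E on either scale. Among the clamp loader genes RFC4 had 58.7 and 170 OPM in K700E and 34.2 and 60.8 in WT, while RFC2 had 82.7 and 20.9 in K700E and 34.9 and 132 in WT, and both pairs of groups overlapped. RNASEH2B had 128 and 51.7 OPM in K700E and 24.5 and 65.0 in WT, and TOP1 had 78.3 and 40.7 in K700E, just above 31.9 and 38.0 in WT. ERCC3 had 78.3 and 119 OPM in K700E, against 138 and 170 in WT, and ERCC2 had 69.6 and 62.7 in K700E, against 19.3 and 58.2 in WT.

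**Figure D4:**
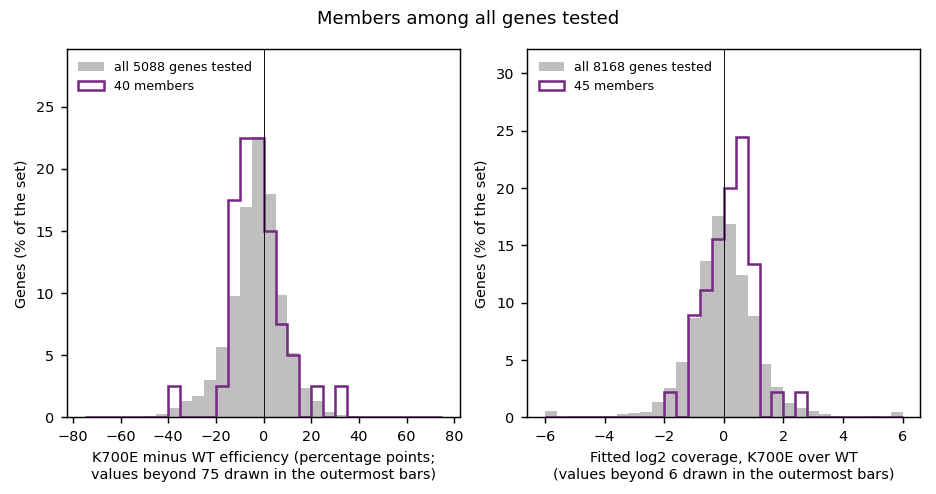
Distribution over genes (percent of each set) of the K700E minus WT difference in splicing efficiency (left, percentage points) and of the fitted log2 coverage, K700E over WT (right), for all genes tested (grey) and for the members (outline). The members sit inside the range of all genes, with medians of -3.28 against -2.55 percentage points and 0.16 against -0.02 log2 units.

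Members with few reads are given by their counts. POLD1, the catalytic subunit of polymerase delta, had 26 and 0 overlaps in K700E and 7 and 52 in WT, and a count of 0 allows up to 3.30 OPM in K700E replicate 2. TIPIN, the partner of TIMELESS in the fork protection complex, had 9 and 22 overlaps in K700E and 1 and 21 in WT. PCNA, the sliding clamp, had 6 and 38 in K700E and 28 and 10 in WT. PALB2, XPA, RPA3 and RNASEH2A had at most 23 overlaps in any sample, and GADD45A had 1 overlap in all. No reads were placed on CDT1, which allows up to 6.53 and 3.30 OPM in K700E and 2.23 and 2.53 in WT.

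Many replication genes are known targets of E2F factors, whose motif TTTNGCGC was searched on both strands in the RefSeq promoters of the members (GRCh38.p14, 250 bases before to 50 after the start of the gene). The motif occurred in 13 of 43 matched member promoters, or 30.2%, against 9.01% of 111 other genes of the same pathways and 1.83% of all 27305 promoters. The stretches around it are shown for CDC25A, which had the largest coverage ratio, and for POLA1, whose coverage of 431 and 707 OPM in K700E overlapped 506 and 468 in WT. Capitals mark the motif or its reverse complement.
CDC25A chr3:48188434-48188481, minus strand: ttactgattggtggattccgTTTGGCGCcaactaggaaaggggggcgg
POLA1 chrX:24693761-24693808, plus strand: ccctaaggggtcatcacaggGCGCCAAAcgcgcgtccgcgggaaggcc
A match is a string of letters and not evidence of binding, and the promoters with a match included members on both sides of the coverage comparison.

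Because the title speaks of elongation, the share of a gene's reads that lay over introns before the midpoint of its non-overlapping introns was compared in 38 members. This 5′ share was higher in K700E in 25 and lower in 13, where it was higher in 2349 of all 4135 genes tested. The median difference was 4.27 percentage points, against 1.82 over all genes. No member passed an adjusted p of 0.05 in edgeR's quasi-likelihood test, where 0% of all genes did, nor did any have an unadjusted p under 0.05, where 3.99% of all genes did. DESeq2 and limma called 0 genes. Both K700E samples lay above both WT samples in 9 members, where 21.4% of all genes did so, and below in 5, where 12.4% did so. FANCA, a subunit of the Fanconi core complex, had 85.1% and 91.1% of its reads in the 5′ share in K700E, against 76.2% and 81.1% in WT (log2 odds 1.02 ± 0.46 SE, edgeR's adjusted p = 0.983). TOP1 had the opposite order, with 25.0% and 43.2% in K700E against 48.8% and 88.9% in WT.

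**Figure D5:**
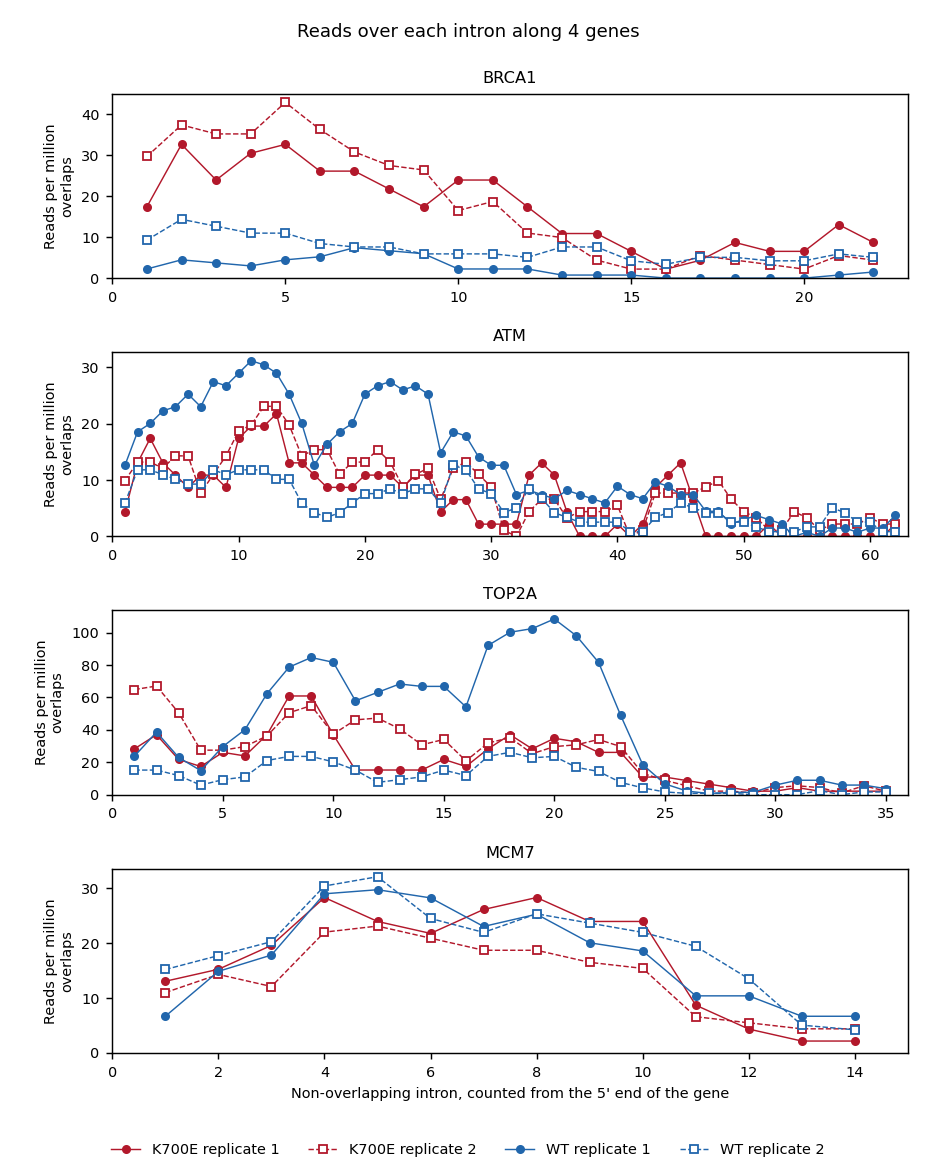
Reads over each non-overlapping intron per 1000000 overlaps of the library (vertical axis) in order from the 5′ end (horizontal axis) of BRCA1, ATM, TOP2A and MCM7; red is K700E, blue is WT, and the marker gives the replicate. In BRCA1 the K700E samples lie above WT over the first introns, with 32.6 and 37.4 in K700E against 4.46 and 14.3 in WT at intron 2, while in TOP2A the single high sample is WT replicate 1, which reaches 108 at intron 20.

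The choice between annotated splice sites was tested where alternatives that share a site lay at least 12 nt apart, since counts of alternatives 1 to 7 nt apart were identical in 99.0% of 1308 pairs and were not resolved, against 3.10% of 290 pairs 12 to 30 nt apart. In 9 member junctions no adjusted p passed 0.05 in edgeR's quasi-likelihood test, where 0% of 288 junctions in all genes did and 2.43% had an unadjusted p under 0.05, and DESeq2 and limma also called 0. FANCI has several annotated 5′ splice sites near its start that join the same 3′ site. The junction chr15:89244068-89247628 took 33.3% and 30.4% of the set's junction reads in K700E, against 40.0% and 37.9% in WT, and chr15:89245840-89247628 took 8.33% and 8.70% in K700E, against 6.67% and 3.45% in WT. In CDC45 the junction chr22:19494603-19495980 took 27.3% and 17.4% in K700E and 30.8% and 8.33% in WT.

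SF3B1 mutants are known for using other 3′ splice sites near the usual one, so annotated pairs 12 to 40 nt apart with junction reads at both sites were listed, and 3 members had one. The pairs of POLE and TOPBP1 are shown, with the donor exon in lower case, the stretch between the sites in capitals and the rest of the exon in lower case (minus strand, GENCODE 29).
POLE intron 9: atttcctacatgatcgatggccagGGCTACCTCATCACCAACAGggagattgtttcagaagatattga
TOPBP1 intron 7: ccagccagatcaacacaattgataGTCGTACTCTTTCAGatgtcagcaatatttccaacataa
In POLE the upstream site (chr12:132676205-132676545) belongs to the protein-coding transcript and had 5 and 14 junction reads in K700E and 15 and 30 in WT. The site 20 nt downstream (chr12:132676185-132676545), which belongs to a transcript annotated for nonsense-mediated decay, had 0 and 4 in K700E and 0 and 0 in WT. As an intron of its own it was spliced in 0% and 13.8% of reads in K700E and in 0% of reads in both WT samples. It entered the test of single introns only through these K700E junction reads, which fixed its direction, so nothing is drawn from that test. In TOPBP1, the activator of ATR, the upstream site had 1 and 1 junction reads in K700E and 7 and 4 in WT, and the site 15 nt downstream had 1 and 1 in K700E and 0 and 3 in WT. MCM4 had a pair 25 nt apart with 7 and 2 upstream reads in K700E and 4 and 3 in WT, and 0 and 2 downstream reads in K700E and none in WT. Since a pair was listed only where both sites had reads, and POLE and MCM4 met this through K700E reads alone, no direction can be read from these counts. The pairs as such were not tested.

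MCM7 also hosts a microRNA cluster in its intron 13 (chr7:100093402-100094172). The intron had 1 and 4 reads in K700E and 9 and 6 in WT, too few for a test, with 1 and 3 junction reads in K700E and 10 and 7 in WT. The mature strands known as the guide of each are shown, from RefSeq, with the seed (bases 2 to 8) in capitals.
miR-106b-5p: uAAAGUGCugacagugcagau
miR-93-5p: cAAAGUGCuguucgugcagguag
miR-25-3p: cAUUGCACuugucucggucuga
The miR-106b and miR-93 strands share the seed AAAGUGC, and miR-25 carries AUUGCAC.

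A wider list of other genes of the same pathways gave no call either. In splicing efficiency 85 were tested, with 0 past an adjusted p of 0.05 in edgeR and 5 at an unadjusted p under 0.05, where 3.34% of all genes had one. Means were lower in K700E in 51 and higher in 34, where 3174 of all 5088 genes were lower. APEX1, the abasic site endonuclease of base excision repair, had the smallest p (edgeR's unadjusted p = 0.0180). It was 30% and 28.1% spliced in K700E against 6.38% and 5.71% in WT, on coverage of 29.5 to 43.5 OPM. The rest of those under 0.05, ORC2, FANCG, GTF2H3 and DBF4, were all lower in K700E. In coverage 113 were tested, with 0 past an adjusted p of 0.05 and 7 at an unadjusted p under 0.05, where 5.07% of all genes had one. Scaled to the library total 78 had higher and 35 lower means in K700E, where 4720 of all 8168 genes were higher, and with TMM 68 had a fitted log2 above 0 and 45 below. RBBP8, also known as CtIP, which starts the resection of broken ends, had 111 and 186 OPM in K700E, against 22.3 and 32.1 in WT. ERCC6, which couples transcription to nucleotide excision repair, had 15.2 and 38.5 OPM in K700E, against 189 and 154 in WT. WEE1, the kinase that opposes CDC25 phosphatases, had 21.8 and 59.4 OPM in K700E, against 361 and 115 in WT.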

How the data were processed

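For each sample the authors deposited a table of annotated introns with raw read counts over the intron and raw counts of reads with its junction, and the ratio of both, rounded, per the file headers. Minimap2 and cutadapt are named with hg38 in the submitters' processing notes, while neither their settings nor the rule that assigns reads to introns is stated there. A table of polymerase 3′ end positions was deposited too; its rows bear no identifiers and it was not used. Rows were placed on GENCODE 29 (GRCh38) by transcript, intron, chromosome, start and strand (87.3 to 87.6% of rows, 95.6 to 96.0% of member rows), and each unique intron was counted once. Ratios above 1 (2.23 to 4.16% of rows) were set to 1. Of the 49 genes, 32 overlap another annotated gene, 16 of them a protein-coding one.

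Counts were tested with edgeR 4.0.16 (quasi-likelihood, R 4.3.3), fitted to spliced and unspliced counts as paired columns, with dispersion 0 for introns and junctions and estimated for genes, and with TMM factors for coverage. The dispersion of 0 for introns was chosen on simulated counts after the default, an estimated one, had been seen, so the default is given as an alternative. P-values were adjusted by Benjamini-Hochberg over all features, threshold 0.05. DESeq2 1.42.0 and limma 3.58.1 (offset 0.5) were alternatives, with other filters, scalings, intron sets, a replicate block and each replicate left out. The fits were run on simulated counts with planted changes, drawn independently for each feature. Neighbouring introns read by the same molecules were not simulated. Named genes are the 3 members of each role class with the smallest p in efficiency, the 2 in coverage, the 2 in 5′ share, the 10 introns and the 3 junctions. Members and lists were chosen with earlier results of these data known. Depth is 459681 to 1346733 overlaps per sample, and no molecular identifiers are mentioned, so Wilson intervals cover counting error only. The junction sequence of 1 named intron is not reported here.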

Additional observations from a re-analysis of the deposited data

How the results depend on the processing

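Each group held 2 samples, and K700E replicate 1 was the shallowest of the 4. No alternative called a member in gene efficiency, gene coverage, 5′ share or junction choice. In intron efficiency 1 member intron, TOP2A intron 2, was called when ratios above 1 were left out, and 0 to 1 with a replicate left out, against 0 as reported.

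Over all genes, the count of introns called was 5 as reported, 0 with DESeq2, 0 with limma, 2 with an estimated dispersion, 3 with the replicate block and 0 to 12 with 1 replicate left out (12 without WT replicate 2, 0 without K700E replicate 2, 2 without K700E replicate 1). Gene efficiency had 1 call with DESeq2, against 0 as reported. Coverage had 14 calls with DESeq2, 30 with no filter on low counts, 1 with the replicate block and 0 to 1 with a replicate left out (1 without WT replicate 1 and 1 without WT replicate 2), against 0 as reported. The 5′ share had 1 call with the replicate block. Samples of the same number did not deviate together (correlation -0.06 for efficiency and -0.08 for coverage), and the block called no member. Labels inside the K700E tables carry other numbers than the sample titles, so the replicate numbers, taken from the titles, may not mark a pairing at all. A pairing under other numbers was not tested. The cause of these shifts was not tested.

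Signs turned when a replicate was left out, so that the log2 odds of gene efficiency ranged from -2.12 to 0.077 for CHEK1, from -1.72 to 0.52 for RFC1, from -0.98 to 0.52 for RPA2, from -1.20 to 0.20 for FANCD2 and from -0.67 to 0.21 for RNASEH2B, each highest without WT replicate 1, and RNASEH2B was also above 0 without K700E replicate 1 (0.18). ERCC3 ranged from -0.15 (without K700E replicate 1) to 0.63. The log2 fold of RFC2 coverage ranged from -2.10 to 0.27 (without WT replicate 2), and the log2 odds of the CDC45 junction from -0.76 (without WT replicate 2) to 1.496. POLE efficiency came to a log2 odds of 0.027 over introns with at least 10 reads, and MCM5 coverage to a log2 fold of 0.30 with its most covered intron in place of the sum. All other named values kept their sign under the alternatives run, 224 of 232 in gene efficiency and 139 of 141 in coverage.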
